A study of Mus musculus with 12 samples.

Results

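E2f1 encodes a transcription factor of the E2F family. It was followed here through a single oligonucleotide probe, A_51_P120636, chosen by its probe name because earlier results of these data had shown lower E2f1 signal after METTL3 knockdown. It is 1 of 45 genes that could be named on the array and 1 of 60691 transcript probes. The cells were MPC5, a conditionally immortalised mouse podocyte line, transfected with either a negative control siRNA or an siRNA against METTL3. Both groups were kept for 24 h in 30 mmol/L glucose, so no group here shows E2f1 in normal glucose. Each group held 3 cultures that the design text calls biological replicates, and the RNA of each was split into an immunoprecipitated fraction (IP, labelled with Cy5) and the supernatant left behind (Sup, labelled with Cy3), giving 12 samples on 6 arrays. The sample titles call knockdown replicates 1 and 2 HG-m3-1 and HG-m3-1-2, and replicate 3 of each group has a code of another pattern (N2-1 and S2-2). The labels do not say what these codes mean, so whether all 3 cultures of a group are equally separate is unknown, and spreads and p-values describe these samples. The labels name neither the antibody nor the siRNA sequences. METTL3 is the catalytic subunit of the complex that writes N6-methyladenosine (m6A) on RNA, and the IP is taken here to be an m6A pull-down because this kind of array is sold for that purpose.

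As background, E2F1 binds DNA together with a DP partner and switches on genes for the G1 to S transition, such as those for nucleotide synthesis and DNA replication. Retinoblastoma proteins hold it inactive until cyclin-dependent kinases phosphorylate them, and E2F1 activates transcription of its own gene. It can also promote apoptosis. Mature podocytes normally do not divide, whereas a conditionally immortalised line such as MPC5 proliferates under permissive culture. m6A is laid down during transcription and can alter the splicing, stability and translation of an mRNA.

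E2f1 gave lower values in the knockdown than in the control in both fractions, by nearly the same amount under the scaling described below. In IP RNA the knockdown mean was 71.8% of the control mean and in Sup RNA it was 72.0%. This near equality depends on the processing. The 2 shares were 78.9% and 71.8% before dye normalization, and 81.3% and 55.9% with scaling to spike-in probes. Under the scaling described below both fractions were lower together. The IP-to-Sup ratio, which is the array's measure of relative m6A enrichment, differed little and its groups overlapped. The knockdown against control values chose this gene, so they are given as a description with no test.

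The IP and Sup levels below are log2 of the background-subtracted, dye-normalized signal less the 75th percentile over the transcript probes of the same array and channel, so a negative value lies below that percentile. In IP RNA, E2f1 stood at -0.57, -0.44 and -0.52 on control arrays 1 to 3. On knockdown arrays 1 to 3 it stood at -0.95, -0.98 and -1.03. The 3 knockdown arrays lay close together and all were below the lowest control array, with a gap of 0.38 between the groups. The means were -0.51 ± 0.06 in the control and -0.99 ± 0.04 in the knockdown (SD, n = 3 arrays each), a difference of -0.48 (knockdown minus control, log2). For comparison, 25280 probes were well above background in Cy5 on 3 or more arrays and had a value on all 6. Of these, 5.36% likewise had every knockdown array below every control array and 4.77% had the reverse order.

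In Sup RNA, which holds transcripts not retained by the antibody, the control arrays gave -0.87, -0.62 and -0.86. The knockdown arrays gave -1.17, -1.17 and -1.43. Control array 2 was the highest and knockdown array 3 the lowest, and the groups were again apart, by 0.30. The means were -0.78 ± 0.14 and -1.26 ± 0.15 (SD, n = 3), a difference of -0.47. The spread between arrays was thus wider in Sup than in IP RNA while the difference was the same size. Among 45655 probes taken by the same rule in Cy3, 3.25% had every knockdown array below every control array and 1.78% had every one above.

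The sum of both dye-normalized channels, used as a stand-in for total E2f1 RNA, was -0.75, -0.55 and -0.70 in the control. It was -1.10, -1.10 and -1.23 in the knockdown. The groups did not overlap here either, with means of -0.67 ± 0.11 and -1.14 ± 0.08 (SD, n = 3), a difference of -0.48 and a knockdown level of 71.9% of the control. For the sum, 4.35% of 45721 probes had this order of groups and 3.75% the reverse. The sum is made from the IP and Sup signals and adds no independent measurement. Dye normalization had brought the channels to like levels (75th percentiles of 352.4 in Cy5 and 354.5 in Cy3 on control array 1). The sum therefore does not weight the fractions by their real RNA amounts. In bulk RNA such as this, fewer cells expressing E2f1 and less E2f1 RNA per cell cannot be told apart.

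The IP-to-Sup ratio, log2(Cy5/Cy3) less the median of the array, was 0.19, 0.15 and 0.29 in the control. In the knockdown it was 0.11, 0.05 and 0.31. The highest value and the lowest value of the 6 both came from knockdown arrays. The means were 0.21 ± 0.07 and 0.16 ± 0.13 (SD, n = 3), and the difference of -0.05 was smaller than the SD of either group. A ratio difference at or below that of E2f1 was found for 42.2% of the 27741 probes tested. Groups apart in the ratio, unlike those of E2f1, were seen for 4.07% of probes with the knockdown lower and 3.66% with it higher.

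**Figure D1:**
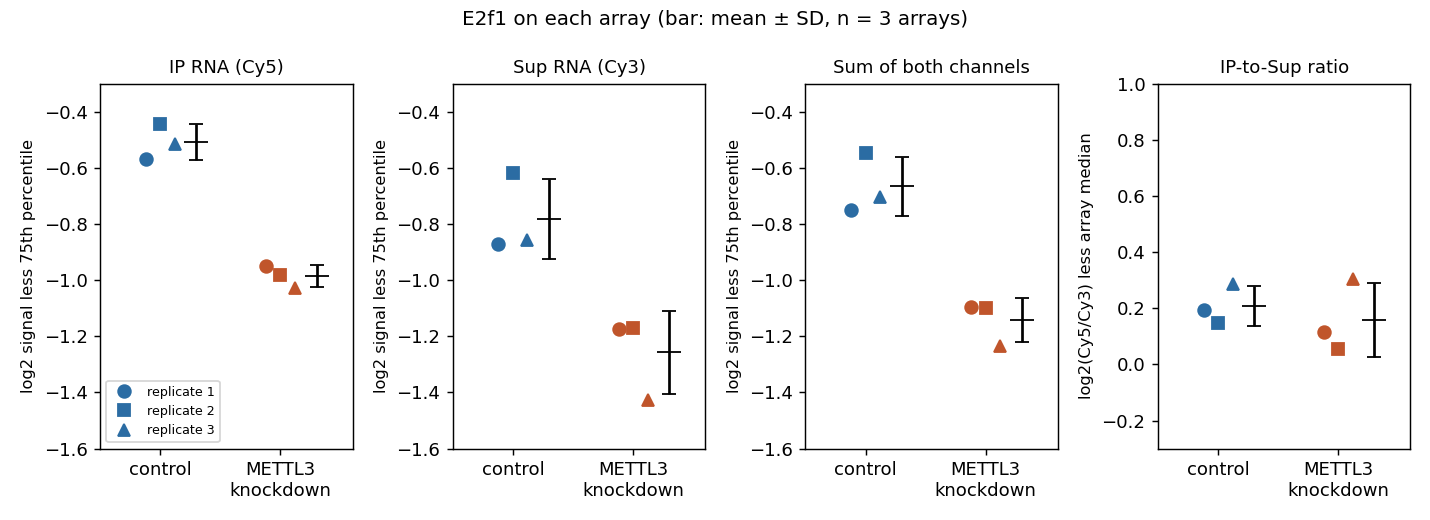
E2f1 on each array, in IP RNA, Sup RNA and the sum of both channels (log2 signal less the array's 75th percentile, shared vertical scale) and as the IP-to-Sup ratio (log2 less the array median), with points for single arrays and bars for mean ± SD of 3 arrays. The control and knockdown points are apart in the first 3 panels and interleave in the ratio panel.

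Arrays with equal replicate numbers gave differences of -0.38, -0.54 and -0.51 in IP RNA for replicates 1 to 3. In Sup RNA these differences were -0.30, -0.55 and -0.57, so replicate 1 showed the smallest difference in both fractions. For the ratio they were -0.08, -0.09 and 0.02, without a common sign.

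Each array printed the E2f1 probe in 10 spots, which share the same labelled RNA and measure only technical spread. Of the 60 spots, 6 were left out because the scanner software marked them as outliers, 2 each on control array 1, control array 3 and knockdown array 2. In each of these pairs 1 spot was marked in Cy5 and the other in Cy3. E2f1 was well above background in Cy3 at 60 of 60 spots and in Cy5 at 57 of 60, and no spot was saturated. Cy5 spots scattered more, with a median SD between spots of 0.18 log2 units against 0.06 in Cy3. The widest Cy5 scatter was on control array 2, with a coefficient of variation of 26.5%, and on knockdown array 3, with 27.2%. Compared at matching print positions over kept spots, the knockdown mean was lower at 10 of 10 positions in IP RNA, by -0.76 to -0.24. In Sup RNA it was lower at 10 of 10, by -0.64 to -0.39. Where a spot was left out, the position lacks that array. At position 10 the control mean is control array 2 alone (-0.62 in IP RNA). The left-out IP values there were -1.98 on control array 1 and -1.09 on control array 3. Knockdown arrays 1 to 3 had -1.04, -0.93 and -1.56, so the IP count of 10 depends on leaving those spots out. The ratio was lower at 5 positions and higher at 5.

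**Figure D2:**
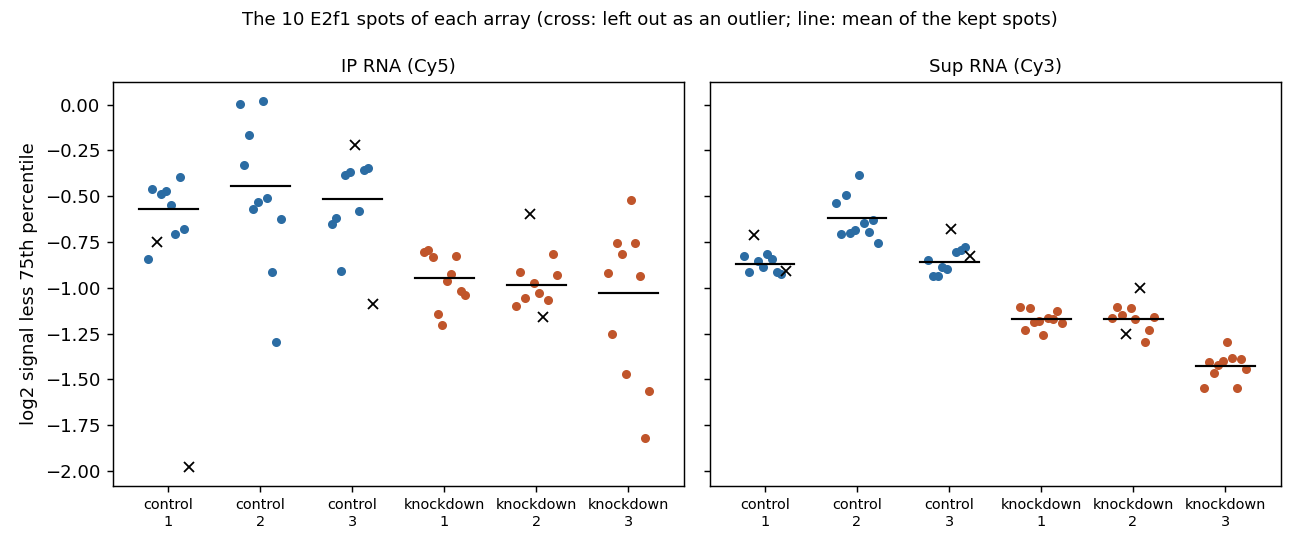
The 10 E2f1 spots of each array in IP RNA (left) and Sup RNA (right), as log2 signal less the array's 75th percentile, with crosses for spots left out as outliers and a line at the mean of the kept spots. Single Cy5 spots of the groups overlap, most widely on control array 2 and knockdown array 3, while in Cy3 the spots lie closer to their line.

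E2f1 was above the median transcript probe, by 1.49 log2 units in IP RNA and 1.12 in Sup RNA over the 6 arrays, yet its unprocessed intensity was low. The median unprocessed Cy3 intensity of the E2f1 spots was 66, 70 and 64.5 on the control arrays. It was 55, 49.25 and 49.5 on the knockdown arrays, over local backgrounds of 9 to 10. These Sup values separated the groups without any scaling, on arrays whose 75th percentile of unprocessed Cy3 intensity was 105 to 111 in the control and 98.5 to 114 in the knockdown. In Cy5 the median unprocessed intensity was 44.5, 38.75 and 36.25 in the control. In the knockdown it was 38.25, 45.5 and 29.75, over local backgrounds of 16 to 19. The Cy5 groups overlapped on this scale, and their separation appeared after scaling to arrays whose 75th percentile of unprocessed Cy5 intensity ran from 44 to 78.5. The highest Cy5 value, 45.5 on knockdown array 2, came from the array with that highest percentile.

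The processed signals, before any scaling between arrays, overlapped in both channels. In Cy5 they were 238, 91.3 and 224 in the control and 199.5, 126 and 129.5 in the knockdown. In Cy3 they were 194, 81.3 and 177, then 171, 112 and 98.7. Control array 2 was the lowest in both, and its dye normalization had multiplied Cy5 by 2.98 and Cy3 by 1.82, against 3.87 to 10.3 and 2.87 to 4.42 on the other 5 arrays. It was also scanned apart from them. Without it, the E2f1 difference was -0.44 in IP RNA, -0.39 in Sup RNA and -0.42 in the sum. Without knockdown array 2, whose title code extends that of knockdown array 1, it was -0.48, -0.52 and -0.50.

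Across all probes, limma called none between knockdown and control at an adjusted p under 0.05, in IP RNA, Sup RNA, the sum or the ratio (percent called 0 in each). At an unadjusted p under 0.05 it gave 994 of 27794 probes in IP RNA, 869 of 48196 in Sup RNA, 1416 of 48262 in the sum and 832 of 27741 in the ratio. Leaving out 1 array moved these unadjusted counts to between 493 and 1903, 560 and 1825, 852 and 2448, and 499 and 1696. Past 1.5 times were control array 1 in all of them (the highest count each time), knockdown arrays 1 (493) and 2 (607) in IP RNA, control array 2 (560) in Sup RNA, knockdown array 1 (852) in the sum, and control array 3 (1324) and knockdown array 3 (499) in the ratio. In Sup RNA and the sum, where arrays of equal replicate number met the mark for pairing, a fit with that number as a block gave 3202 and 3159 at an unadjusted p under 0.05 and again none after adjustment. The median difference over all tested probes was -0.04 in IP RNA, -0.05 in Sup RNA and -0.03 in the sum. Relative to that median E2f1 was at -0.44, -0.43 and -0.44. Differences as low as that of E2f1 or lower were seen for 14.3% of probes in IP RNA, 6.57% in Sup RNA and 8.39% in the sum. With quantile normalization of each channel these shares were 5.76%, 1.38% and 3.07%. In the deposited table they were 18.9%, 11.3% and 14.0%, over the same 27865 rows in each measure. That is another set of probes, so these last shares differ in more than the scaling.

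**Figure D3:**
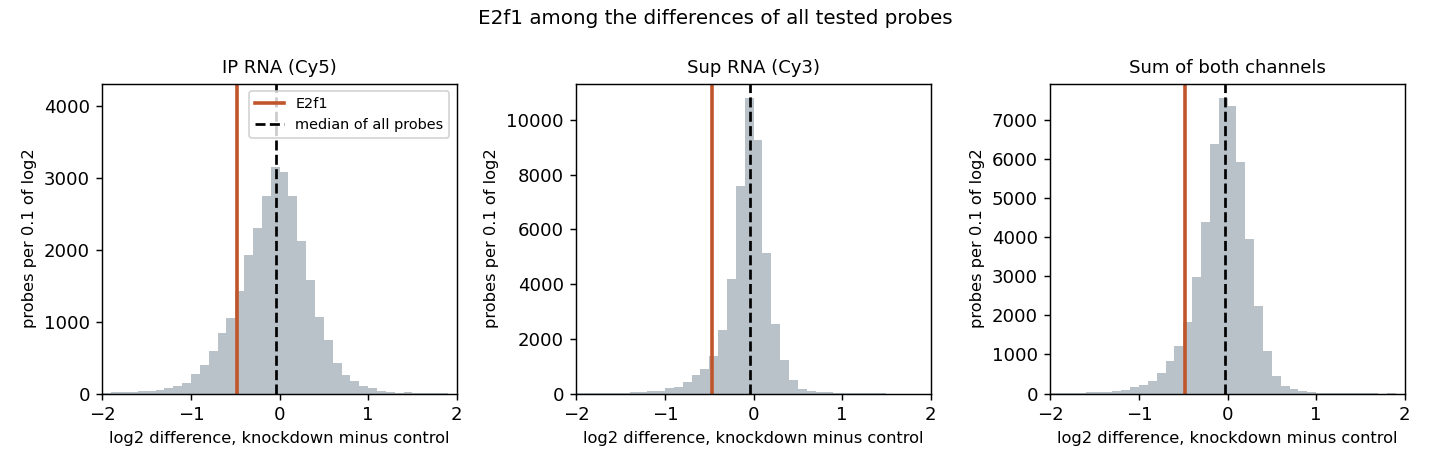
Histograms of the knockdown minus control difference (log2) over all tested probes in IP RNA, Sup RNA and the sum of both channels, with the median dashed and E2f1 as a solid line. E2f1 lies in the lower part of each distribution, with 14.3%, 6.57% and 8.39% of probes at or below it under the scaling drawn here. The shares were 5.76%, 1.38% and 3.07% with quantile normalization. They were 18.9%, 11.3% and 14.0% in the deposited table, over another set of probes (27865 rows).

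The size of the E2f1 difference moved with the scaling, and its sign did not. Over 12 ways of processing, the difference ran from -0.60 to -0.23 in IP RNA, from -0.84 to -0.20 in Sup RNA and from -0.59 to -0.21 in the sum. In each of the 12 the groups did not overlap, although the gap in IP RNA shrank to 0.017 when the signal was taken before dye normalization. The ratio groups overlapped in 13 of 13 ways, with a difference from -0.05 to 0.04. Scaling to the median of transcript probes is 1 of the 13 and by construction leaves the ratio as reported. The smallest differences in each fraction came from the setting that replaced the background correction, the dye normalization and the starting signal together (normexp and loess on median signals), and which of these moved them was not tested. The widest departure between fractions came from scaling to 15 spike-in probes, which gave -0.30 in IP RNA and -0.84 in Sup RNA and moved the median of all probes to 0.13 and -0.41. Relative to that median E2f1 stayed at -0.43 in both. With spike-ins the ratio was set against the spike-in ratios, not made from the 2 scaled channels. Its difference of -0.03 therefore does not follow from -0.30 and -0.84. A ratio made from the 2 spike-in-scaled channels would be higher in the knockdown, because Sup RNA was lowered more than IP RNA. That ratio is not among the 13 ways, so the small ratio difference does not hold for every scaling.

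Which spots entered the 75th percentile also mattered. Outlier marks were more frequent on control arrays (988 to 1597 spots per array) than on knockdown arrays (487 to 533). In Cy5, 93.2% to 98.6% of the marked spots were brighter than the 75th percentile of their array (not computed for Cy3). Leaving them out of the percentile lowered it more on control arrays, which moved the median of all probes to -0.16 in IP RNA and in Sup RNA and the E2f1 difference to -0.60 in IP RNA and -0.59 in the sum. Relative to the median E2f1 was at -0.44 in IP RNA and -0.43 in Sup RNA, as with all spots. The percentile reported above was taken with all spots, so that it uses the same probes on every array.

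In the authors' deposited value table, E2f1 was 0.57, 0.55 and 0.55 in the control IP columns and 0.40, 0.20 and 0.16 in the knockdown IP columns. In its Sup columns it was 0.48, 0.60 and 0.61, then 0.30, 0.40 and -0.05. The groups were apart in both, by 0.15 in IP and 0.08 in Sup, and the differences were -0.31 and -0.35. Groups apart in this direction made up 2.94% of the IP rows of that table, 0.718% of the Sup rows and 2.1% of the sums made from both, where E2f1 differed by -0.32. The ratio of its columns differed by 0.04, the opposite sign to the -0.05 above, with overlapping groups.

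**Figure D4:**
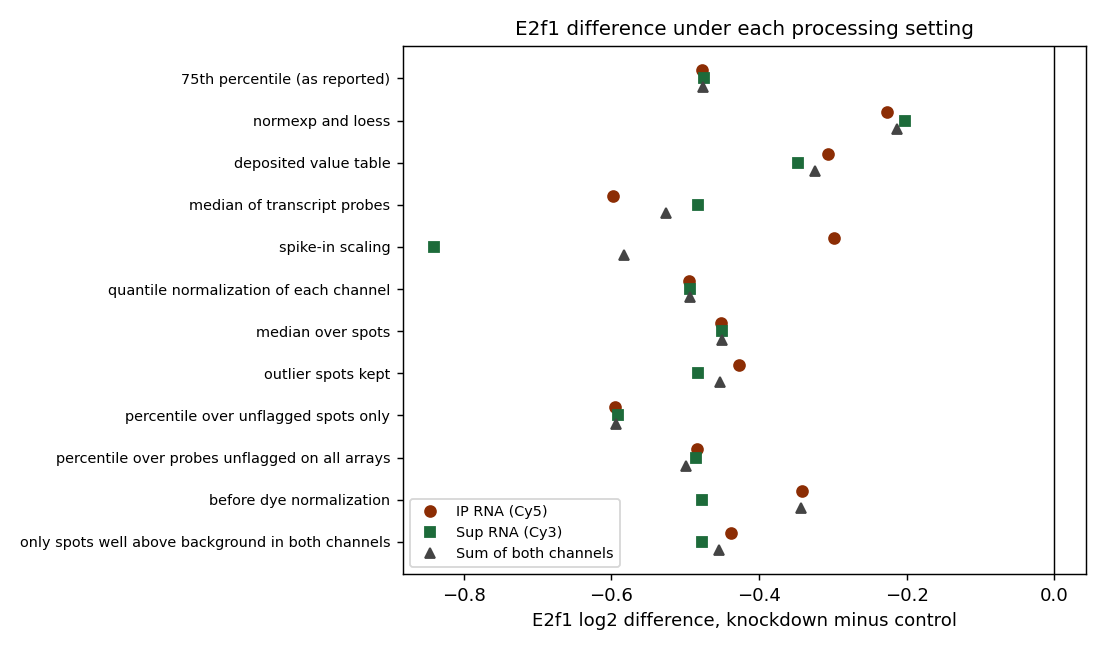
The E2f1 difference, knockdown minus control (log2), in IP RNA, Sup RNA and the sum under 12 ways of processing, 1 per line. All points lie below 0, from -0.84 (Sup RNA, spike-in scaling) to -0.20 (Sup RNA, normexp).

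A separate question is whether E2f1 is enriched in the IP fraction compared with other transcripts of the same array, which does not use knockdown against control. The E2f1 ratio was above the array median on 6 of 6 arrays, with a mean of 0.18 (SE 0.086, 95% interval from -0.01 to 0.38). It did not pass the test over 27812 probes (limma, adjusted p = 0.0981), whereas 58.2% of probes were called, 28.2% above and 29.9% below the median. The adjusted p was 0.340 on control arrays alone and 0.310 on knockdown arrays alone. Dyes were not swapped, so the probe's own dye bias is part of this value, and before dye normalization it was -0.08 (limma, adjusted p = 0.569). With normexp and loess it was 0.05 (95% interval from -0.05 to 0.14, limma, adjusted p = 0.383). With no centring it was 0.27 (limma, adjusted p = 0.0259), where 33.7% of all probes were called higher. With spike-in probes as the reference it was 0.52 (limma, adjusted p = 0.00482), where 48% of all probes were called higher.

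Among 26 named genes whose Cy5 and Cy3 signals were well above background on each of the 6 arrays, likeness to E2f1 was measured as the root mean square difference over the 12 samples, after taking each gene's own mean out of each fraction. The closest were Tm9sf1 (0.226), Uhrf1bp1l (0.231), H2-M2 (0.238) and Actb (0.243), where the median over the 26 was 0.352. A flat line would score 0.254 against E2f1, so these 4 are only slightly nearer to it than no variation at all. Tm9sf1, a member of the transmembrane 9 superfamily, differed by -0.31 in IP RNA and -0.27 in Sup RNA, with overlapping groups in both. H2-M2, a non-classical histocompatibility gene, differed by -0.31 in each fraction, also with overlap. Uhrf1bp1l differed by -0.06 in IP and -0.23 in Sup RNA, with overlap in both. Actb, which encodes the cytoskeletal protein beta-actin, differed by -0.54 in IP RNA with groups apart and by -0.41 in Sup RNA with overlap. Other named genes were often lower too, 25 of 32 tested in IP RNA and 31 of 41 in Sup RNA (E2f1 counted), with medians of -0.10 and -0.11, beside 55.0% and 60.5% of all tested probes.

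Of 10 genes listed for the E2F family and its DP partners, E2f1 was the single gene with a named probe. None of the other pathway genes looked for, 73 in all with these 10 (retinoblastoma proteins, G1 cyclins and kinases, their inhibitors, replication targets of E2F, proliferation genes and the m6A machinery), had a named probe, and neither did the 21 markers of podocytes and other kidney or immune cells. The levels of E2F1's partners and targets, of Mettl3 itself and of podocyte markers were therefore not analysed here, and the group names rest on the labels. Over the arrays, 35.0% to 50.3% of transcript probes were well above background in Cy5 and 73.6% to 80.4% in Cy3.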

How the data were processed

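The authors' deposited scanner files hold spot intensity values from Agilent Feature Extraction 11.0.1.1, per the file headers. That software had subtracted the background and then normalized the dyes, first linearly and then by lowess. The value table deposited by the authors gives 27920 probes on a log2 scale. Each column equals log2 of the mean processed signal over all spots of a probe, less a constant for that column (largest departure 5.00e-09). The column medians were 1.45, 1.21, 1.28, 1.52, 1.36 and 1.38 for IP (control 1 to 3, then knockdown 1 to 3) and 1.54, 1.46, 1.64, 1.67, 1.77 and 1.56 for Sup. Its scale and direction are known and how the constants were set stays unknown.

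Spots marked as outliers were left out, spots of a probe averaged and log2 taken. IP, Sup and the sum were set against the array's 75th percentile over all transcript probes with all spots, and the ratio against the median of tested probes. Tests took probes with signal well above background on 3 or more of the 6 arrays (both channels for the ratio). limma 3.58.1 (lmFit, eBayes) in R 4.3.3 with version 1.17.8 of data.table fitted all probes, with Benjamini-Hochberg adjustment at 0.05, and was tested on simulated data. The number of arrays limits the precision.

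Equal replicate numbers were checked by correlating deviations from group means. These were 0.321 to 0.529 in Sup RNA and 0.180 to 0.345 in the sum, all over 0.1, the mark for pairing. Arrays of unequal number reached 0.216 in Sup RNA and 0.191 in the sum, the latter above its lowest pair, so the pairing in the sum is weak. In IP RNA they were 0.0702 to 0.306 and in the ratio -0.00313 to 0.0929, so pairing was not taken there.

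Gene names came from accessions in the files matched to RefSeq transcripts of GRCm38.p6. Of 50 catalogue probes 45 matched. The headers name build mm9, so no coordinates are given. The scanner files used here hold median, not mean, unprocessed signals, so normexp used medians. E2f1, the lists and the alternatives were chosen with earlier results of these data known. Named genes are the 45 with a symbol. By rule the text gives values for E2f1, the 4 of them most like it, list members among them, and Mettl3 if it had a named probe.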

Additional observations from a re-analysis of the deposited data

How the results depend on the processing

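The E2f1 difference kept its direction in IP RNA, Sup RNA and the sum under every alternative tried. In IP RNA it was -0.48 and became -0.23 with normexp and loess, -0.31 in the deposited table, -0.60 with the median of transcript probes, -0.30 with spike-in scaling, -0.60 with the percentile over unflagged spots and -0.34 before dye normalization. In Sup RNA it was -0.47 and became -0.20 with normexp and -0.84 with spike-ins. In the sum it was -0.48 and became -0.21 with normexp, -0.32 in the deposited table, -0.58 with spike-ins, -0.59 with unflagged spots and -0.34 before dye normalization. Leaving out each array in turn gave -0.51 to -0.44 in IP RNA, -0.52 to -0.39 in Sup RNA, -0.52 to -0.42 in the sum and -0.12 to 0.0010 in the ratio. The settings before dye normalization, with dim spots removed, with array weights and with other sets of spots behind the percentile were chosen after seeing the data. Apart from the spike-in shift of all probes and the unequal outlier marks, the cause of these moves was not tested.

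Adjusted calls (limma) stayed at 0 with these exceptions. Spike-ins gave 31 in Sup RNA and 1 in the sum. Arrays left out gave 0 to 1 in IP RNA and in the sum, the 1 each time without control array 2. A scan block gave 1 in IP RNA and 1 in the sum. Control array 2 was alone in its scan, so the block takes out that same array and is no separate check. Probes with every knockdown array below every control array numbered 1354 in IP RNA, 1484 in Sup RNA and 1988 in the sum. They became 3811, 2694 and 3235 without a filter on dim probes, 503, 4405 and 3367 with spike-ins, 2567, 4854 and 4856 with unflagged spots, and 818, 200 and 585 in the deposited table. With an array left out they were 1851 to 3168, 2472 to 4270 and 3127 to 6055, where fewer arrays have to be in order.

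Each replicate number held 1 array per group, so a replicate block could not move the E2f1 differences (-0.48, -0.47, -0.48 and -0.05). The block gave 0 adjusted calls in each measure and unadjusted counts of 1629 in IP RNA and 908 in the ratio. The E2f1 ratio against the array median likewise had to stay at 0.18, with an adjusted p of 0.145 (limma) under the block. This ratio was 0.27 without centring (limma, adjusted p = 0.0259, with 33.7% of all probes called higher). It was 0.52 with spike-ins (limma, adjusted p = 0.00482, with 48% called higher). With normexp and loess it fell to 0.046 (limma, adjusted p = 0.383), and before dye normalization to -0.078 (limma, adjusted p = 0.569). Arrays left out gave 0.15 to 0.21. E2f1's Cy5 signal was near 2 times its local background (1.86 to 2.46 times), which limits the IP values more than the Sup values (4.93 to 7.33 times).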
